A study of Mus musculus with 12 samples.

Results

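The genes described here encode the general splicing machinery: the proteins of the small nuclear ribonucleoproteins (snRNPs), splicing factors 3a and 3b, the serine and arginine rich (SR) proteins and the heterogeneous nuclear ribonucleoproteins (hnRNPs). They were chosen by symbol alone, as every gene of the array's annotation whose name begins with Snrp, Sf3a, Sf3b, Srsf or Hnrnp, except Snrpn. The rule found 48 genes among the 19057 genes with a single symbol, with 115 probes between them. They comprised 9 Sm and snRNP proteins, 9 SF3a and SF3b subunits, 10 SR proteins and 20 hnRNPs. RNA of mouse embryonic cortex was hybridized to 12 Illumina mouse WG-6 v2.0 BeadChip arrays, 4 at E12.5 (embryonic day), 4 at E15.5 and 4 at E18.5, to follow gene expression over cortical development. The design text gives 4 embryos per stage, and the labels give stage and tissue with no genotype, treatment, strain or sex. No label says that each array holds a single embryo. The p-values rest on the spread among arrays of the same stage, pooled over the 12 arrays in a single model. With 4 arrays per stage, the precision is limited.

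Splicing removes introns from newly made transcripts. The spliceosome is built from snRNPs, in which a small nuclear RNA carries a ring of Sm proteins, and the SF3a and SF3b complexes help the U2 snRNP to hold the branch site of an intron. SR proteins bind exons and mostly promote the use of nearby splice sites, whereas hnRNPs coat the nascent transcript and often oppose that use. In the developing cortex, changes in alternative splicing accompany the passage from dividing progenitors to neurons.

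Within a stage, Pearson's r over tested probes (a description) was 0.979 or more, and 15227 to 17472 of 45281 probes were detected per array. Marker genes were read beside the splicing genes. The 4 tested cortical identity genes were detected on all 12 arrays, but their levels changed. In E18.5 against E12.5, Emx1 and Lhx2 were lower (log2 fold changes -2.06 and -1.95), and Tbr1 and Neurod2 higher (0.62 and 1.80). The mean log2 level of 6 tested progenitor genes was 9.62 to 10.09 on the E12.5 arrays, 8.44 to 8.72 on the E15.5 arrays and 7.27 to 7.58 on the E18.5 arrays, and 6 of 6 were lower in E18.5 than in E12.5. The mean of 5 neuronal genes was 8.86 to 10.09, 10.67 to 10.91 and 11.75 to 11.82 at the 3 stages in that order, and 5 of 5 were higher. The choroid plexus list ran from 8.47 to 10.01 over the E12.5 arrays, from 5.46 to 8.82 over the E15.5 arrays, with replicate 4 the highest, and from 4.70 to 5.20 over the E18.5 arrays, where 3 of its 4 genes were detected on no array. The interneuron list, 5 of 5 genes higher in E18.5 than in E12.5, ran from 4.58 to 6.58, from 7.43 to 8.04 and from 8.97 to 9.16 at the 3 stages. The erythroid list ran from 10.11 to 10.75, from 7.56 to 8.45 and from 5.06 to 5.33. Of its 4 tested genes, 3 were lower in E18.5 than in E12.5. The part of these shifts in the results below was not tested, and in bulk RNA fewer cells of a type and less RNA per cell cannot be told apart. E12.5 replicate 4 stood apart from its stage, with a first principal component score of -53.40 against -91.65 to -88.34 for the other 3 and the highest interneuron value of its stage. Counts are given with and without it, and without both it and E15.5 replicate 4.

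Splicing genes were mostly lower at the later stages. Of the 46 genes with a tested probe, 32 were lower and 3 higher in E18.5 than in E12.5 at an adjusted p under 0.01 (limma, Benjamini-Hochberg), and 11 did not pass. Over all 10662 genes tested, 34.4% were lower and 31.5% higher in this comparison. The median log2 fold change of the 46 was -0.59, against -0.07 over all genes tested, and 40 of 46 were negative. Falls were moderate in size: 9 members were lower and 3 higher by at least 2-fold, where the background was 13.9% lower and 16.3% higher. Without E12.5 replicate 4 the counts were 34 lower and 3 higher, with Hnrnph3 and Hnrnpk added, and without both arrays they were 33 and 3. Median scaling in place of quantile normalization gave 37 lower and 3 higher, with a median of -0.83 over the members and -0.01 over all probes. The shares of all genes lower or higher under these alternatives are not given here, so no excess is read from their counts. The remaining 2 genes, Snrpb2 of the U2 snRNP and the Sm protein gene Snrpe, were detected on no array and were not tested.

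The members' median change was negative in both intervals. In E15.5 against E12.5, 21 members were lower and 3 higher, with a background of 21.6% lower and 24.2% higher, and the median log2 fold change was -0.31 against -0.01 over all genes. In E18.5 against E15.5, 17 were lower and 4 higher, with a background of 23.3% lower and 19.8% higher, and the median was -0.23 against -0.06. Without E12.5 replicate 4 the counts of lower genes were 21 and 17 in these intervals, and without both arrays they were 17 and 14. The count of the later interval depended most on the arrays and the scaling. It was 11 without E15.5 replicate 1 or 3 or without E18.5 replicate 1, 2 or 3, and 8 with cyclic loess, whereas median scaling gave 25 and a members' median of -0.50. The share of all genes lower under these settings is not given here, so no excess of lower members is read from them. By their calls, 13 genes were lower in all 3 comparisons (Hnrnpf, Hnrnpll, Sf3a1, Sf3a3, Sf3b3, Snrpa, Snrpb, Snrpf, Snrpg, Srsf1, Srsf2, Srsf4 and Srsf9). In 7 genes the fall passed in the earlier interval and over the whole period (Hnrnpd, Hnrnpm, Hnrnpu, Hnrnpul1, Sf3b4, Srsf10 and Srsf6), and in 4 it passed in the later interval and over the whole period (Sf3b2, Sf3b5, Sf3b6 and Srsf11). A further 8 passed only over the whole period (Hnrnpa1, Hnrnpc, Hnrnpl, Sf3a2, Snrpd1, Snrpd2, Snrpd3 and Srsf3). The difference between the intervals itself passed for Hnrnpa3 and Sf3b6 alone on the brightest probes, 2 of 46 genes against 18.2% of all genes.

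**Figure D1:**
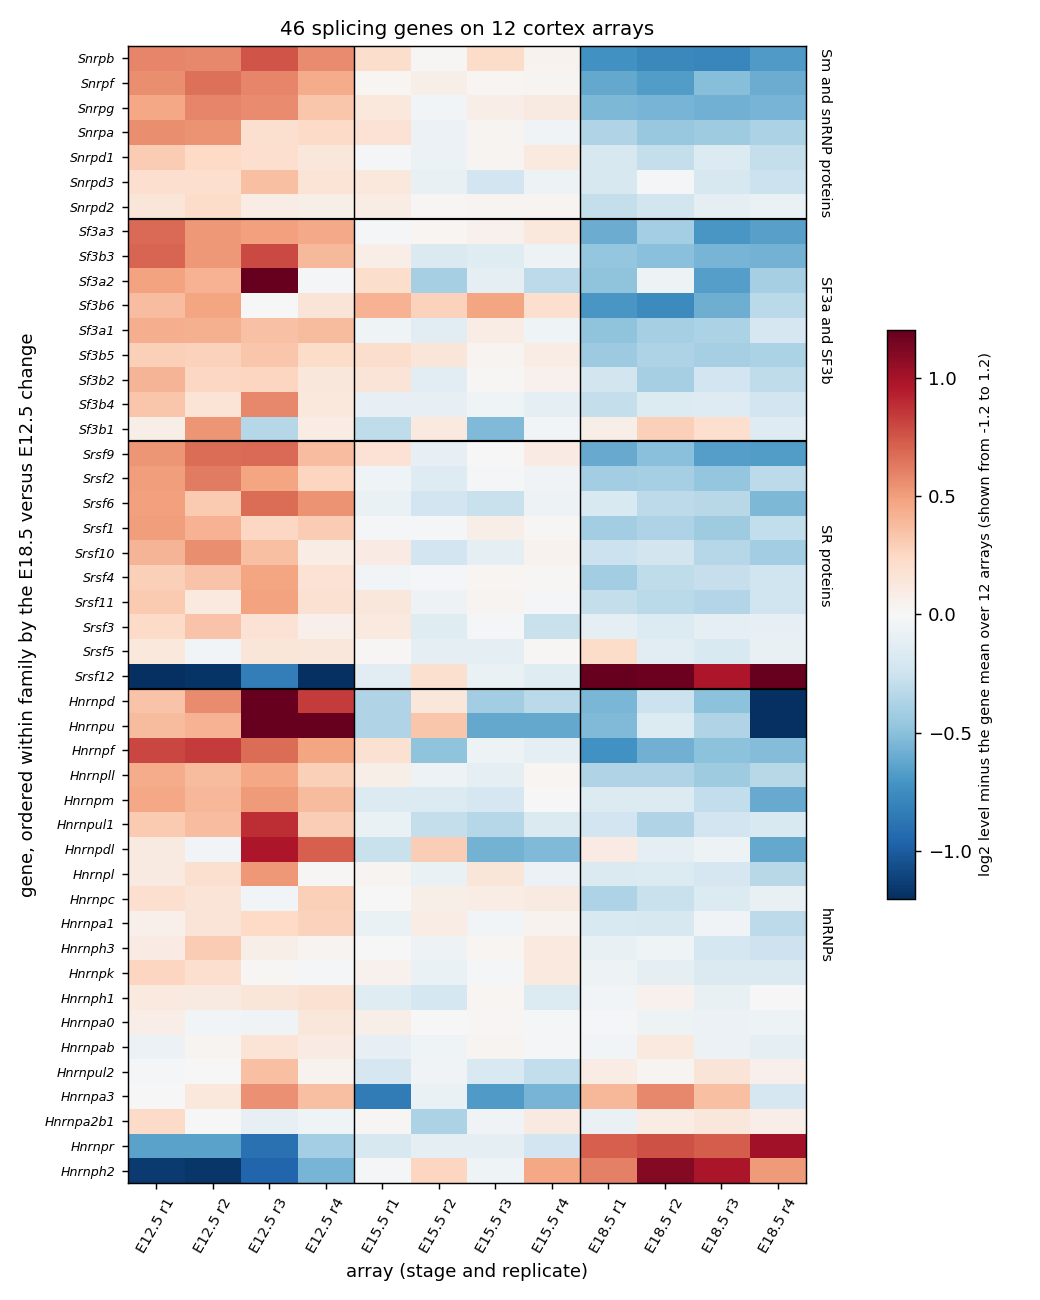
Log2 level of each of the 46 tested splicing genes (rows, grouped by family) on each of the 12 arrays (columns), as the difference from that gene's mean over all arrays. Color runs from blue, 1.2 below the mean, to red, 1.2 above it, and most rows pass from red at E12.5 to blue at E18.5, with Srsf12, Hnrnpr and Hnrnph2 the other way.

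Lower genes were found in all 4 families, and the hnRNPs held most of the members that did not pass. In E18.5 against E12.5, 7 of 7 tested Sm and snRNP genes were lower with a median log2 fold change of -0.79, and 8 of 9 SF3a and SF3b genes with a median of -0.76. Among the SR proteins, 8 of 10 were lower and 1 higher, with a median of -0.65. Among the hnRNPs, 9 of 20 were lower (45%) and 2 higher (10%), with a median of -0.32, so that their share of lower genes lay nearest the 34.4% of all genes tested. In E18.5 against E15.5, 2 of 20 hnRNPs were lower (10%), below the 23.3% of all genes tested, and 3 were higher. Whether the families differ from each other was not tested. On single arrays, the median level of the Sm and snRNP genes relative to each gene's mean ranged from 0.23 to 0.54 over the E12.5 arrays, from -0.03 to 0.12 over the E15.5 arrays and from -0.46 to -0.36 over the E18.5 arrays, so that the stages did not overlap. For the hnRNPs it was 0.11 to 0.30, -0.08 to -0.04 and -0.19 to -0.09, and E18.5 again lay below E15.5 on every array. E12.5 replicate 4 was the lowest E12.5 array in every family but the hnRNPs.

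**Figure D2:**
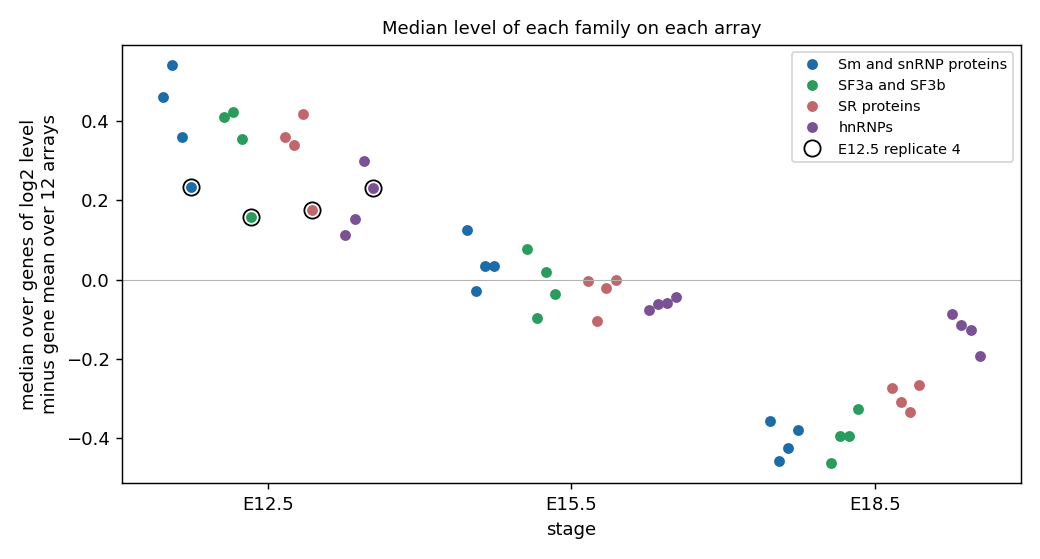
Median over the genes of a family of log2 level minus the gene's mean over 12 arrays, by stage, with 1 point per array and family. The Sm and snRNP genes span the widest range, from 0.54 to -0.46, the hnRNPs the narrowest, from 0.30 to -0.19, and circles mark E12.5 replicate 4.

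Promoter sequence was read for the genes that moved, since most members of one machinery were lower at E18.5. RefSeq windows from 250 bases before to 50 bases after a transcription start (mouse GRCm38.p6) were found for 42 of the 48 genes, 56 windows in all. The letters CCGGAAG, the core bound by ETS factors, stood on either strand in 19 of these windows (33.9%), against 17% of 11118 windows of tested genes and 8.86% of all 32851 windows. They were in 16 of 35 windows of genes lower in E18.5 than in E12.5 (45.7%) and in 0 of 4 windows of the 3 genes that were higher, too few windows to set a share. Counted by gene, so that neighboring starts count once, they were in 14 of 42 members (33.3%) and in 11 of 27 lower members (40.7%), against 1728 of 8629 tested genes (20%). The palindrome-like TCTCGCGA of ZBTB33 (Kaiso) was in 5 windows (8.93%), those of Hnrnph3, Snrpg, Srsf10 and Srsf4, against 2.12% of the windows of tested genes. Other motifs were rarer among the members or near the share of tested genes: NRF1 (GCATGCGC) in 3.57% against 5.13%, YY1 (AAGATGG) in 3.57% against 7.02%, the cyclic AMP element TGACGTCA in 3.57% against 3.13%, E2F (TTTCGCGC or TTTGGCGC) in 1.79% against 1.54%, and TATAAA in 10.7% against 7.21%. All were searched on both strands, no motif contains another, and windows of neighboring starts of a gene share sequence. A match describes letters and does not show binding. Windows of all genes lower in E18.5 than in E12.5 were not counted, so a link between the letters and the fall was not tested. Shown first, for each family, is the window of the gene with the largest fall among lower genes that hold the ETS letters. Genes with larger falls and no such letters, such as Srsf9, were passed over. The 3 genes that were higher follow, taken whatever their letters. The ETS letters in the printed windows of lower genes thus follow from the choice, and no contrast with the higher genes is read from them. Every motif match is in capitals. The windows run 5′ to 3′ along the gene, and a match on the opposite strand appears as its reverse complement.
Snrpg, chr6:86371290-86371589, plus strand: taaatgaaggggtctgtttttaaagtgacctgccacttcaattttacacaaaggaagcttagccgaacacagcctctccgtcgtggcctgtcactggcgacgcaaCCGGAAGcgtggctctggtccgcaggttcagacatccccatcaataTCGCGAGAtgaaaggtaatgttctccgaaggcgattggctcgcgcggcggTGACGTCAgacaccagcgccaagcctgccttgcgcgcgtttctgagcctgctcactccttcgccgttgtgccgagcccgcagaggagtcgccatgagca
Sf3a3, chr4:124714611-124714910, plus strand: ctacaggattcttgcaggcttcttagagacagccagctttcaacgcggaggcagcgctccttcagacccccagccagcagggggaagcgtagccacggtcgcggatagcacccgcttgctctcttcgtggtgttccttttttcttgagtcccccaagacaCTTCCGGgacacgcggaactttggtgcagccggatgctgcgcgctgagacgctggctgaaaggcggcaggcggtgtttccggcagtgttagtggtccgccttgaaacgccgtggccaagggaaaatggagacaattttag
Srsf4, chr4:131873387-131873686, plus strand: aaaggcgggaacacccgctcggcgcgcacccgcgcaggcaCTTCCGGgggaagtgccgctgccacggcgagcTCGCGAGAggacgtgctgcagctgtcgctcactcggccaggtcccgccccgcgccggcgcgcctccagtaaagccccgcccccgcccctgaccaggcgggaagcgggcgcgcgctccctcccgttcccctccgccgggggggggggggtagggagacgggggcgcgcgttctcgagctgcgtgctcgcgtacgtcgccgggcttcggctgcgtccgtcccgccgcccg
Hnrnpd, chr5:99978889-99979188, minus strand: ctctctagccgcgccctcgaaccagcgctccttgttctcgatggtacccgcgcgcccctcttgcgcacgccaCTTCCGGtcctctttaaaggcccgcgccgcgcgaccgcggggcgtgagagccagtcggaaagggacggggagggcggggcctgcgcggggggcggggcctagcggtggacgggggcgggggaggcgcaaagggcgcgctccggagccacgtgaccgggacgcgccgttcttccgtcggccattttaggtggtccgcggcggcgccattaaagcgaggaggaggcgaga
The Snrpg window holds the ETS letters, the ZBTB33 letters and the cyclic AMP element at 145, 99 and 49 bases before the start. The ETS letters lie 90 bases before the start in Sf3a3, 210 in Srsf4, whose window also holds the ZBTB33 letters 178 bases before the start, and 178 in Hnrnpd.
Srsf12, chr4:33209022-33209321, plus strand: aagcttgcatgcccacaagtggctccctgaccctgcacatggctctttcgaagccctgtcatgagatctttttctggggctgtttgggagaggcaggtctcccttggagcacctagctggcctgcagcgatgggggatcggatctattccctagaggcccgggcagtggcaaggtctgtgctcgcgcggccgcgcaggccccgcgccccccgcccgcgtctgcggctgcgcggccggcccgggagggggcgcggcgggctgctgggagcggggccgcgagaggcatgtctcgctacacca
Hnrnph2, chrX:134600929-134601228, plus strand: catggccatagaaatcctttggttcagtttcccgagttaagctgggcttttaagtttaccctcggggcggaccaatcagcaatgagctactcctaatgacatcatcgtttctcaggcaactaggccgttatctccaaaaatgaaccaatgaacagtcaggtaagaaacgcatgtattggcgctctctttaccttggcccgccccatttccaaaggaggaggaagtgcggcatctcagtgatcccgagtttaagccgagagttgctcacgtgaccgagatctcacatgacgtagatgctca
Hnrnpr, chr4:136310692-136310991, plus strand: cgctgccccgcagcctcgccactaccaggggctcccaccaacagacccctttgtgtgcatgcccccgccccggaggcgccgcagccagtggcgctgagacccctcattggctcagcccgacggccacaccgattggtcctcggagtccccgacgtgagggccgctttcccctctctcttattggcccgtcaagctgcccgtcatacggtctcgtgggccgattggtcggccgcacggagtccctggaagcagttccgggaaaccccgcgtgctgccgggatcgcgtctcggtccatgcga
None of the motifs searched was found in these windows of Srsf12, Hnrnph2 and Hnrnpr. Snrpf and Srsf9, among the members with the largest falls, hold no ETS letters in theirs. The letters were in 11 of 27 lower members with a window, so most of these genes that fell did not hold them.

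The Sm and snRNP genes were lower at E18.5 by amounts that differed among them. The genes given below array by array for their change in E18.5 against E12.5 were taken from those whose values at these 2 stages did not overlap, so that this separation follows from the choice. Snrpb, which encodes the SmB and SmB′ proteins of the Sm ring, had log2 levels of 12.67, 12.67, 12.84 and 12.66 on the E12.5 arrays, 12.30, 12.10, 12.31 and 12.13 on the E15.5 arrays and 11.36, 11.32, 11.31 and 11.41 on the E18.5 arrays. E15.5 overlapped neither other stage, and the later step was the larger in size, -0.86 against -0.50 in the earlier one, though the difference between them did not pass (adjusted p = 0.0687, limma). Over the whole period Snrpb was 2.57-fold lower in E18.5 than in E12.5 (log2 fold change -1.36, SE 0.081, adjusted p = 4.44e-09). Snrpf, another Sm ring protein, read 11.88, 11.98, 11.91 and 11.76 at E12.5, 11.34, 11.39, 11.34 and 11.35 at E15.5 and 10.71, 10.65, 10.81 and 10.73 at E18.5. Its E15.5 values overlapped neither other stage, and E18.5 was 2.23-fold below E12.5 (log2 fold change -1.16, SE 0.075, adjusted p = 9.66e-09). Snrpg, the third Sm ring gene, read 12.62, 12.75, 12.73 and 12.49 at E12.5, 12.29, 12.13, 12.25 and 12.28 at E15.5 and 11.62, 11.60, 11.59 and 11.60 at E18.5. The E18.5 arrays agreed within 0.014 (SD) and lay 2.06-fold below E12.5 (adjusted p = 4.81e-08). A second Snrpg probe did not pass in E18.5 against E12.5 (log2 fold change 0.01, SE 0.123, adjusted p = 0.938), and with the probes averaged the later step of Snrpg was -0.15 (adjusted p = 0.19). The core Sm genes Snrpd1, Snrpd2 and Snrpd3 fell by less, with log2 fold changes of -0.45, -0.31 and -0.40 in E18.5 against E12.5. None of these 3 passed in either interval alone. Snrpa, an RNA-binding protein of the U1 snRNP, was lower in all 3 comparisons, by 0.79 on the log2 scale over the whole period.

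Of the SF3a and SF3b genes, 8 of 9 were lower in E18.5 than in E12.5, and one fell late on its brightest probe. Sf3a3, the subunit SF3a60, had levels of 12.15, 11.996, 11.97 and 11.93 at E12.5, 11.46, 11.50, 11.53 and 11.60 at E15.5 and 10.88, 11.07, 10.78 and 10.82 at E18.5. E15.5 overlapped neither other stage, and E18.5 was 2.18-fold lower than E12.5 (log2 fold change -1.13, SE 0.087, adjusted p = 5.42e-08). Sf3b3, a large scaffold subunit of SF3b, read 11.27, 11.10, 11.37 and 10.97 at E12.5, 10.65, 10.41, 10.43 and 10.51 at E15.5 and 10.11, 10.07, 10.01 and 10.01 at E18.5. It too was 2.18-fold lower in E18.5 (adjusted p = 1.7e-07), with steps of -0.67 and -0.45 in the 2 intervals. Sf3b6, the small subunit that contacts the branch site adenosine, followed another course on this probe, at 7.15, 7.26, 6.79 and 6.94 at E12.5, 7.20, 7.06, 7.26 and 6.99 at E15.5 and 6.09, 6.02, 6.20 and 6.46 at E18.5. Its E12.5 and E15.5 values overlapped (log2 fold change 0.09, adjusted p = 0.551), whereas all E18.5 values lay below both (-0.94 against E15.5, adjusted p = 2.8e-05). The difference between its intervals was -1.03 (SE 0.214, adjusted p = 0.00284), and it did not pass without E15.5 replicate 1 or without E15.5 replicate 3, when 0 of the members passed. A second tested probe of Sf3b6, annotated to a cDNA clone, passed in no comparison (log2 fold change -0.19 in E18.5 against E15.5 and -0.09 in E18.5 against E12.5). Sf3a1, Sf3b2, Sf3b4 and Sf3b5 were lower by 0.51 to 0.76 on the log2 scale in E18.5 than in E12.5. A second tested probe of Sf3a1 did not pass in this comparison (log2 fold change -0.26). Sf3a2 was detected on 4 E12.5 arrays, 2 E15.5 arrays and 1 E18.5 array, so its fall of 0.95 (adjusted p = 0.00229) rests on values close to background. Sf3b1, whose protein clamps the branch site duplex and which is the largest SF3b subunit, was detected on 2, 1 and 3 arrays of the 3 stages and did not pass in any comparison.

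**Figure D3:**
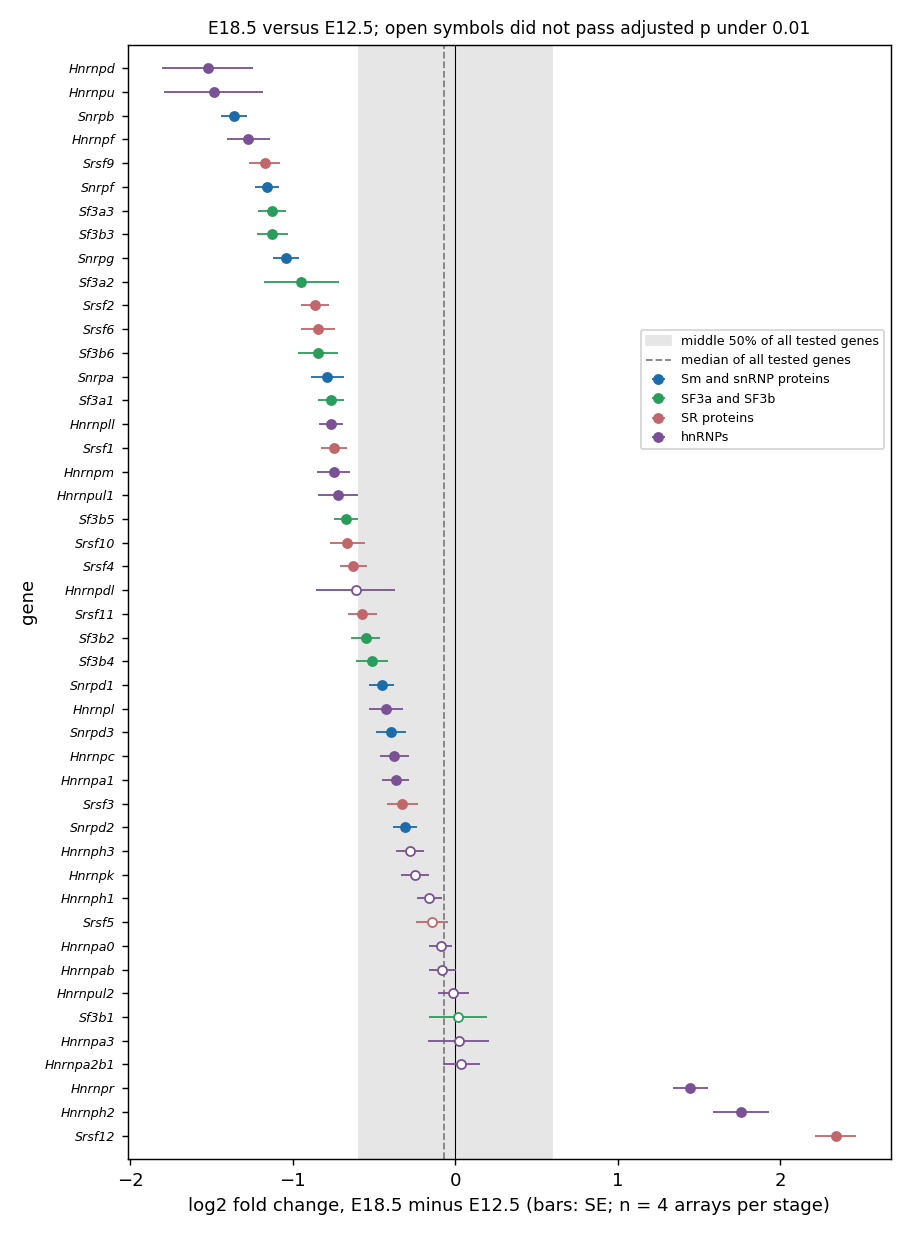
Log2 fold change of each tested splicing gene in E18.5 against E12.5, with bars of 1 SE from the model, n = 4 arrays per stage, and color for the family. Filled symbols passed an adjusted p under 0.01, the gray band spans the middle 50% of all tested genes, and 32 filled symbols lie left of 0 and 3 right of it. Srsf12 was not detected at E12.5, so its point is a fitted value and its change is known only as a bound.

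Among the SR proteins, 8 genes fell and Srsf12 rose. Srsf9 (SRp30c) had levels of 12.41, 12.55, 12.56 and 12.25 at E12.5, 12.05, 11.78, 11.88 and 11.97 at E15.5 and 11.27, 11.38, 11.22 and 11.20 at E18.5. E15.5 overlapped neither other stage, and E18.5 was 2.25-fold below E12.5 (log2 fold change -1.17, SE 0.094, adjusted p = 8.17e-08), the largest fall of this family. Srsf2 (SC35), often used to mark nuclear speckles, read 13.50, 13.62, 13.48 and 13.26 at E12.5, 12.95, 12.85, 12.98 and 12.96 at E15.5 and 12.58, 12.61, 12.53 and 12.69 at E18.5. The fall of Srsf2 was 1.82-fold over the whole period (adjusted p = 7.64e-07), and its later step lost the call with cyclic loess (-0.18, adjusted p = 0.0914) and without E15.5 replicate 1, 3 or 4 or E18.5 replicate 1, 2 or 3 (adjusted p of 0.0134 to 0.0179). Srsf6 (SRp55) read 11.13, 10.95, 11.31 and 11.18 at E12.5, 10.56, 10.41, 10.37 and 10.58 at E15.5 and 10.46, 10.32, 10.31 and 10.10 at E18.5. It fell by 0.66 on the log2 scale in E15.5 against E12.5 (adjusted p = 0.000111), whereas E18.5 and E15.5 overlapped (-0.18, adjusted p = 0.149), and the difference between these steps did not pass (adjusted p = 0.0569). Srsf1, the founding SR protein, Srsf4 and Srsf10, known as a splicing repressor when dephosphorylated, were lower in E18.5 than in E12.5 by 0.75, 0.63 and 0.66 on the log2 scale, and Srsf3 by 0.32.

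Srsf12, an SR-like protein described in human as an antagonist of other SR proteins, went the other way. It was not detected on any E12.5 array, where it read 5.11, 5.22, 5.57 and 5.07, and was detected on all others, at 6.26, 6.58, 6.31 and 6.24 on E15.5 arrays and 7.66, 7.57, 7.36 and 7.73 on E18.5 arrays. Each stage lay above the one before. The E18.5 mean was at least 3.48-fold above E12.5 and the E15.5 mean at least 1.48-fold above it. For an undetected array, these bounds take the higher of the probe's signal and the lowest detected signal of that array. The fit used the undetected E12.5 signals themselves (adjusted p = 1.69e-09 and 1.06e-05, limma), so its p-values do not test the bounds. The probe entered the tests only through the later stages, where it was detected. E18.5 was 2.35-fold higher than E15.5, where both were measured (log2 fold change 1.23, SE 0.125, adjusted p = 2.47e-06).

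Hnrnpr and Hnrnph2 were the other genes that rose. Hnrnpr, whose protein binds and helps to localize beta-actin mRNA in axons of mouse motor neurons, read 8.22, 8.22, 7.97 and 8.46 at E12.5, 8.67, 8.76, 8.75 and 8.63 at E15.5 and 9.57, 9.62, 9.59 and 9.87 at E18.5. E15.5 overlapped neither other stage, and E18.5 was 2.73-fold above E12.5 (log2 fold change 1.45, SE 0.106, adjusted p = 3.27e-08). The rise rests on this probe alone, to which the annotation gives no transcript accession: the other 3 probes of Hnrnpr, all annotated to RefSeq transcripts, were detected on 0 arrays at every stage. Hnrnph2, an X-linked relative of Hnrnph1, fell outside the rule for genes shown array by array, since it was detected on only 2 E12.5 arrays, and was chosen after its values were seen. It read 5.57, 5.55, 5.77 and 6.16 at E12.5, 6.70, 6.98, 6.67 and 7.18 at E15.5 and 7.33, 7.82, 7.70 and 7.23 at E18.5, higher in E18.5 than in E12.5 by 1.76 on the log2 scale (adjusted p = 5.63e-07).

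**Figure D4:**
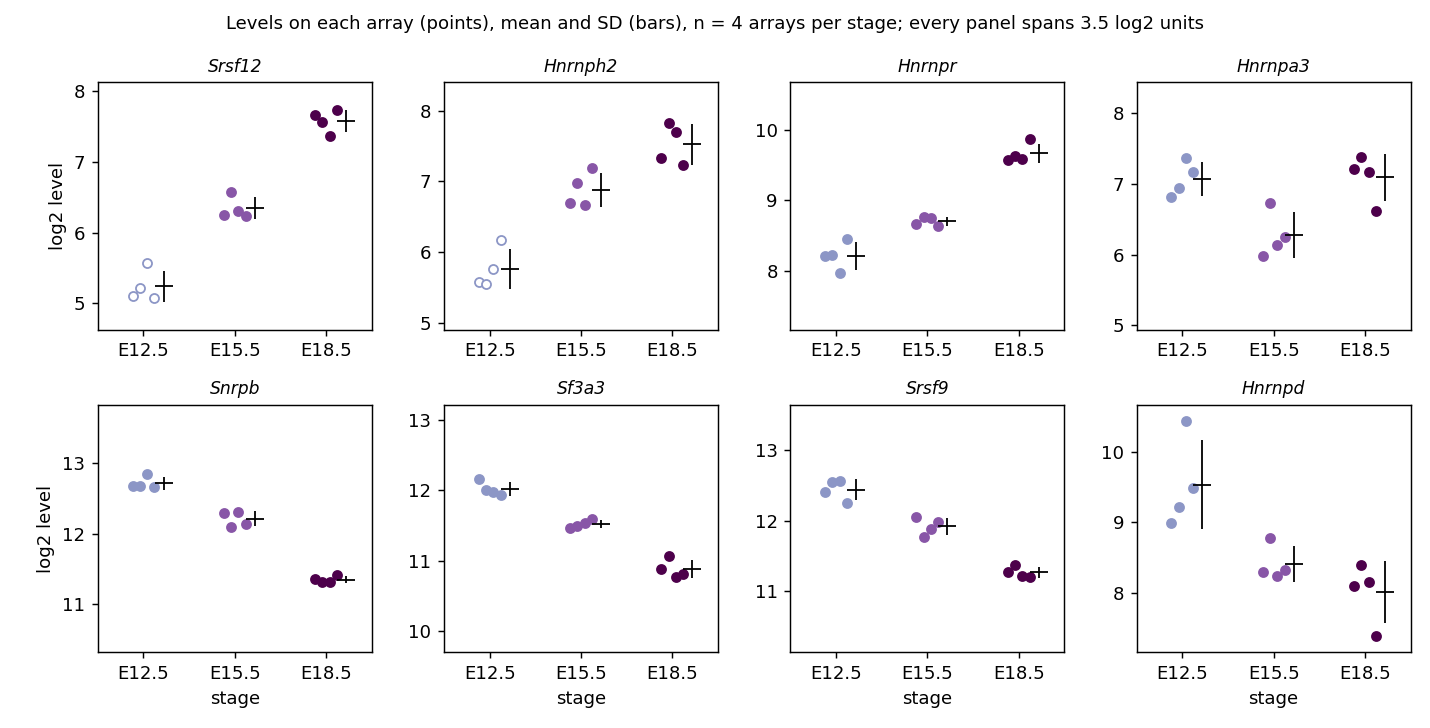
Log2 level on each array (points) with the mean and SD (bars) for 8 genes by stage, n = 4 arrays per stage. Open points mark stages where the probe was not detected on all 4 arrays, and every panel spans the same range of log2 units. The upper row holds 3 genes that rose and Hnrnpa3, whose E15.5 values dip, and the lower row holds the largest fall of each family.

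Among the hnRNPs, the 2 genes with the largest falls, Hnrnpd and Hnrnpu, also had the widest errors. Hnrnpd (AUF1), which binds AU-rich elements and governs mRNA decay, had levels of 8.99, 9.22, 10.44 and 9.49 at E12.5, 8.29, 8.78, 8.24 and 8.32 at E15.5 and 8.11, 8.40, 8.16 and 7.39 at E18.5. E18.5 was 2.87-fold below E12.5 (log2 fold change -1.52, SE 0.280, adjusted p = 0.000237), and the E18.5 values overlapped those of E15.5. Its fall in the earlier interval (-1.12, adjusted p = 0.00383) did not pass without E15.5 replicate 1, 3 or 4, at adjusted p of 0.0114, 0.0127 and 0.0112. Hnrnpf, which binds G-rich sequence, read 9.79, 9.83, 9.66 and 9.46 at E12.5, 9.17, 8.51, 8.93 and 8.89 at E15.5 and 8.26, 8.42, 8.50 and 8.47 at E18.5. It was 2.41-fold lower in E18.5 than in E12.5 (SE of the log2 fold change 0.130, adjusted p = 9.3e-07). The later step of Hnrnpf was close to the threshold (-0.46, adjusted p = 0.00879) and was lost without any 1 of 10 arrays, the exceptions being E12.5 replicate 4 and E15.5 replicate 2. Hnrnpll, a regulator of CD45 splicing in T cells, was steadier, at 11.17, 11.10, 11.19 and 11.01 at E12.5, 10.80, 10.67, 10.62 and 10.76 at E15.5 and 10.36, 10.36, 10.30 and 10.39 at E18.5. Its E18.5 level was 1.70-fold below E12.5 (adjusted p = 7.05e-07), and E15.5 overlapped neither other stage, although a second probe of Hnrnpll did not pass (-0.42 in E18.5 against E12.5). Hnrnpm, Hnrnpul1, Hnrnpl, Hnrnpc and Hnrnpa1 were lower by 0.37 to 0.75 on the log2 scale in E18.5 than in E12.5. Of their tested probes, 2 of 4 were lower for Hnrnpul1, over a range from -0.77 to 0.39, and 2 of 3 for Hnrnpa1.

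Several hnRNP probes shared their high and low arrays within a stage, a pattern noticed after the values were seen and not one of hnRNPs alone. Hnrnpd, Hnrnpu, Hnrnpdl, Hnrnpa3 and Hnrnpa1 each had their 2 highest E12.5 values on replicates 3 and 4, their highest E15.5 value on replicate 2 and their lowest E18.5 value on replicate 4. These are 5 of 46 members (10.9%) and 5 of 20 hnRNPs (25%). The same order of arrays was found in 684 of 10662 tested genes (6.42%), among them Bcas2 and Gemin2 of the wider spliceosome and the progenitor genes Pcna and Pax6. The order was picked from these hnRNPs, so no excess among them is read from the shares. Its part in these results was not tested. Hnrnpu (SAF-A), a scaffold-attachment protein, read 7.21, 7.25, 8.37 and 8.11 at E12.5, 6.47, 7.17, 6.22 and 6.23 at E15.5 and 6.31, 6.67, 6.47 and 5.55 at E18.5. Hnrnpdl, a close relative of Hnrnpd, read 11.10, 10.96, 11.97 and 11.70, then 10.72, 11.28, 10.42 and 10.46, then 11.09, 10.88, 10.93 and 10.38 at the same stages. The SD over the E12.5 arrays reached 0.634 in Hnrnpd and 0.591 in Hnrnpu. Hnrnpu was lower in E18.5 than in E12.5 by 1.49 on the log2 scale (SE 0.307, adjusted p = 0.000615), and Hnrnpdl did not pass (-0.61, SE 0.243, adjusted p = 0.0363). Without E12.5 replicate 4, Hnrnpu lost its call in E15.5 against E12.5.

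Hnrnpa3 dipped at E15.5. Its levels were 6.81, 6.94, 7.36 and 7.17 at E12.5, 5.98, 6.73, 6.14 and 6.25 at E15.5 and 7.21, 7.39, 7.17 and 6.61 at E18.5. The E15.5 arrays all lay below the E12.5 arrays, but E15.5 replicate 2 exceeded the lowest E18.5 array. The change was -0.80 in E15.5 against E12.5 (adjusted p = 0.00274) and 0.82 in E18.5 against E15.5 (adjusted p = 0.00237), and the difference between the intervals was 1.62 (SE 0.327, adjusted p = 0.00237), which did not pass without E15.5 replicate 1 or without E15.5 replicate 3. E18.5 and E12.5 differed by 0.02 (SE 0.189). Its fall in the earlier interval did not pass without E12.5 replicate 3 (adjusted p = 0.0108) or E15.5 replicate 1 (adjusted p = 0.0104). Hnrnpul2, a relative of Hnrnpu, had the third smallest adjusted p for the difference between intervals, at 0.54 (SE 0.166, adjusted p = 0.0257), which did not pass. It read 9.87, 9.89, 10.25 and 9.93 at E12.5, 9.69, 9.84, 9.71 and 9.60 at E15.5 and 9.98, 9.93, 10.04 and 9.95 at E18.5.

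Of the 10 genes whose brightest probe passed in no comparison, 8 were hnRNPs (Hnrnpa0, Hnrnpa2b1, Hnrnpab, Hnrnpdl, Hnrnph1, Hnrnph3, Hnrnpk and Hnrnpul2), beside Sf3b1 and Srsf5. In 6 of the 10 another probe did pass (Hnrnpa0, Hnrnpa2b1, Hnrnpdl, Hnrnph1, Hnrnpk and Srsf5). The 3 with the highest mean level were Hnrnpab, Hnrnph1 and Hnrnpa0. Hnrnpab, an A/B-type hnRNP, read 14.17, 14.27, 14.40 and 14.34 at E12.5, 14.14, 14.19, 14.27 and 14.23 at E15.5 and 14.21, 14.36, 14.17 and 14.13 at E18.5. Its stages overlapped throughout (E18.5 against E12.5 -0.08, SE 0.081, adjusted p = 0.401), but with median scaling the value was -0.90 (adjusted p = 3.67e-06). Hnrnph1, a G-run binder, read 12.54, 12.54, 12.57 and 12.61 at E12.5, 12.28, 12.22, 12.45 and 12.27 at E15.5 and 12.39, 12.48, 12.33 and 12.42 at E18.5. E15.5 lay below E12.5 on every array, just short of the threshold (-0.26, SE 0.076, adjusted p = 0.0105, and 0.00584 without E15.5 replicate 3), and E18.5 against E12.5 was -0.16 (adjusted p = 0.0754) or, with median scaling, -0.53 (adjusted p = 0.000304). Dimmer RefSeq probes of Hnrnph1 did pass: 1 changed by -0.48 in E15.5 against E12.5 (adjusted p = 0.00107) and 0.38 in E18.5 against E15.5 (adjusted p = 0.00535), another by -0.39 and 0.42 (adjusted p = 0.000863 and 0.000604), and a further one was higher in E18.5 than in E15.5 by 0.32 (adjusted p = 0.00764). In the first 2 the difference between intervals passed as well (adjusted p = 0.00221 and 0.000727), so that these probes were lowest at E15.5. Hnrnpa0, an AU-rich element binder, read 12.33, 12.22, 12.21 and 12.38 at E12.5, 12.32, 12.26, 12.27 and 12.24 at E15.5 and 12.22, 12.19, 12.18 and 12.19 at E18.5. It differed by -0.09 in E18.5 against E12.5 (SE 0.072, adjusted p = 0.283), and by -0.42 with median scaling (adjusted p = 0.000846). A miss of the threshold does not show that these genes held one level.

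Other probes of the same genes mostly had the same sign over the whole period, and some differed within the intervals. Of 92 tested probes, 59 were lower and 3 higher in E18.5 than in E12.5, against 33.3% and 30% of all tested probes. Of 28 genes with more than 1 tested probe, 22 had the same sign on every probe in this comparison. In E18.5 against E15.5, 27 of the 92 probes were lower and 9 higher, with a median log2 fold change of -0.18, against 21.3% and 19.9% of all tested probes. In E15.5 against E12.5, 43 were lower and 3 higher, against 21.6% and 21.7%. The change differed between the intervals in 9 probes of 7 genes (Hnrnpa3, Hnrnpdl, Hnrnph1, Sf3a1, Sf3b6, Srsf10 and Srsf11), against 17.8% of all tested probes, and in 8 of these 9 the difference was positive. In 3 genes whose brightest probe did not pass in E18.5 against E12.5, another was lower: Hnrnpa0 by 0.69, Hnrnpk by 0.73 and Srsf5 by 0.45 on the log2 scale. Hnrnpa2b1, an abundant A/B-type hnRNP, was split, with its brightest probe at 0.04 in E18.5 against E12.5 and the others at -0.83 and -0.96, neither of which passed. The probe at -0.83 was 2.65-fold lower in E15.5 than in E12.5 (adjusted p = 0.00598), although only 1 of 4 E15.5 arrays detected it. One probe of Hnrnpdl dipped at E15.5, with a change of -0.77 in E15.5 against E12.5 (adjusted p = 0.000307), of 0.48 in E18.5 against E15.5 (adjusted p = 0.00922) and a difference between intervals that passed (adjusted p = 0.00149), while its brightest probe passed nowhere. The 2 dimmer tested probes of Hnrnpa2b1 had their 2 highest E12.5 values on replicates 3 and 4, their highest E15.5 value on replicate 2 and their lowest E18.5 value on replicate 4, as in Hnrnpd and Hnrnpu, and the brightest probe did not.

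Srsf11 (p54) was the gene with probes called in opposite directions. Its brightest probe read 11.09, 10.90, 11.27 and 10.97 at E12.5, 10.92, 10.72, 10.82 and 10.77 at E15.5 and 10.50, 10.46, 10.44 and 10.55 at E18.5. Its change in E15.5 against E12.5 was -0.25 (adjusted p = 0.03, limma), and the difference between its intervals did not pass (adjusted p = 0.767). Its change in E18.5 against E15.5 was -0.32 (SE 0.090, adjusted p = 0.00857), a call that was lost without any 1 of 9 arrays and that turned to 0.17 (adjusted p = 0.116) with the probes averaged. A probe of Srsf11 annotated to a cDNA clone read 7.50, 6.96, 7.39 and 7.15 at E12.5, 5.59, 5.58, 5.66 and 5.56 at E15.5, where it was detected on 0 of 4 arrays, and 6.97, 6.84, 6.35 and 6.35 at E18.5. This probe was thus low at E15.5 alone, at least 2.74-fold lower than at E12.5, and E18.5 was at least 1.78-fold above E15.5. A clone probe of Srsf10 was likewise detected on 4 arrays at E12.5 and on 0 at E15.5 and E18.5, while its RefSeq probes were detected at every stage. Which transcripts the clone probes report was not examined here.

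**Figure D5:**
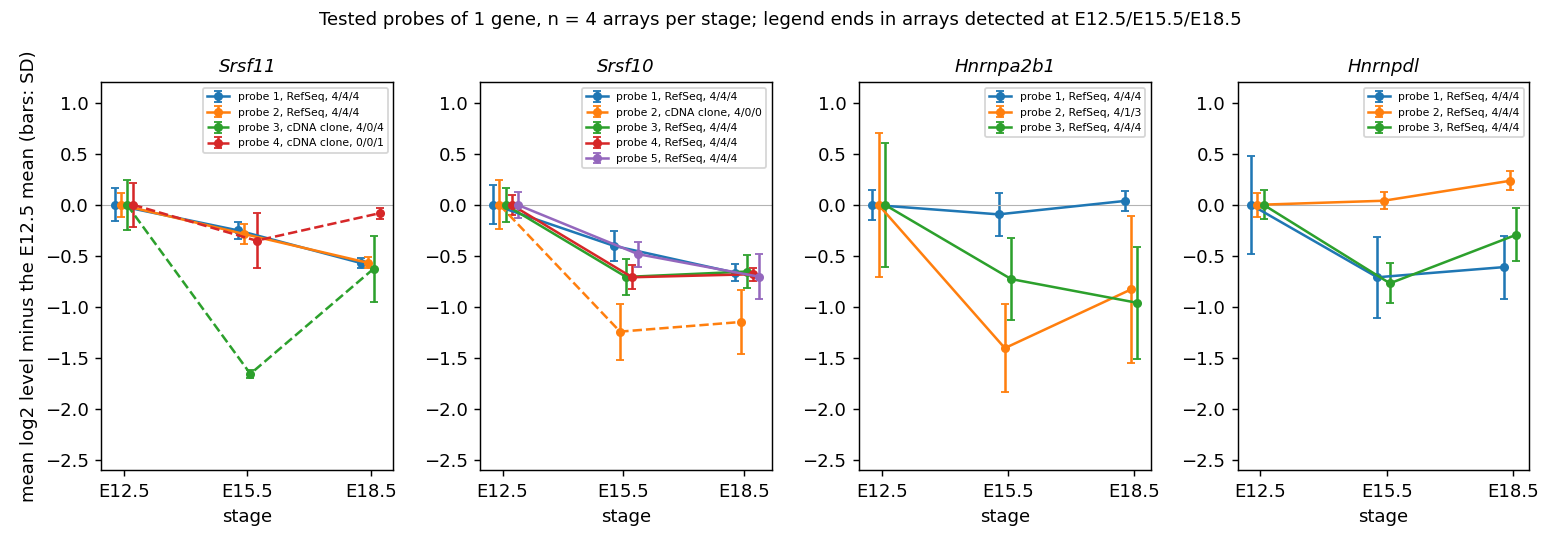
Mean log2 level at each stage minus the E12.5 mean, for every tested probe of 4 genes, with SD bars (n = 4 arrays per stage), dashed lines for probes annotated to cDNA clones and legends that give the arrays detected at each stage. The RefSeq probes of Srsf11 decline together while 1 clone probe falls below detection at E15.5, and the probes of Hnrnpa2b1 and Hnrnpdl part from each other.

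Genes of the wider spliceosome were also more often lower than higher. In 7 lists of splicing genes outside the naming rule, 68 of 89 tested genes were lower and 4 higher in E18.5 than in E12.5, with a median log2 fold change of -0.55, against 34.4% lower, 31.5% higher and a median of -0.07 over all genes tested. Among U snRNP and tri-snRNP proteins 22 of 24 were lower, led by the Lsm ring genes Lsm2 (-1.73, adjusted p = 1.9e-08) and Lsm5 (-1.33, adjusted p = 3.28e-08). Of the factors that load Sm rings onto snRNA, 12 of 14 were lower, with Gemin2 at -1.75 and Gemin4 at -1.52. The Prp19 complex had 11 of 14 lower, with Isy1 at -1.54 and Ctnnbl1 at -1.27. Of the U2 snRNP and early complex partners, 8 of 12 were lower and 1, Prpf40b, higher (0.58). Among them Luc7l, related to a yeast U1 snRNP protein, was at -3.13 and U2af2 at -1.05. In the exon junction complex 5 of 6 were lower, Eif4a3 by 0.92 on the log2 scale and Sap18, detected on no E18.5 array, by at least 1.996-fold. Helicases and second step factors had 5 of 9 lower and 1 higher, with Dhx16 at -0.89 and Slu7 at 0.85. Dhx16 was detected on 4 E12.5 arrays, 2 E15.5 arrays and 1 E18.5 array, so its fall rests on values close to background. SR protein kinases and SR-related proteins were the most mixed, with 5 of 10 lower and 2 higher. In these last 2 lists the count of lower genes is close enough to the 34.4% of all genes, with so few members, that no direction is read from it. There Srpk2, a kinase of SR proteins, was 0.84 higher (adjusted p = 7.07e-06) and Clk2, another such kinase, 0.71 lower on the log2 scale.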

How the data were processed

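Signals of embryonic cortex RNA, biotin-labeled, were read on 12 arrays. The authors deposited, per the file headers, an intensity per probe and array (not normalized) and a detection p-value. The authors also deposited a table of processed log2 values, found to match log2 signals after quantile normalization, and these served as an alternative. The submitters' processing notes name lumi, with its version not given in the sources used here. Probe names came from the platform annotation, in which 34885 of 45281 probes have 1 gene symbol, 18 several and 10378 none. All 48 members matched a RefSeq gene by gene ID.

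Signals were background-corrected with limma 3.58.1 (R 4.3.3) by the normal-exponential model fitted on detection p-values, with an offset of 16, quantile normalized and log2 transformed (neqc). Tested were 19652 probes that any array detected (p under 0.01), in a single linear model of stage means over all 12 arrays with moderated variances, after a test on simulated data. P-values were adjusted by Benjamini-Hochberg over all tested probes within each comparison, and calls needed an adjusted p under 0.01. A gene stands for its tested probe of the highest mean. Levels of different probes were not compared.

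Members and lists were chosen with earlier results of these data known. Shown array by array were, per family, the 3 genes with the largest change each way in E18.5 against E12.5. They were taken from called genes that every array of both stages detected and whose values did not overlap. Also shown so were the 3 members with the smallest adjusted p for the difference between intervals and the 3 of the highest mean that passed nowhere. Genes with opposite probes and the largest bound each way were added. From each other list the 2 called genes with the largest change were named, without array values. Alternatives covered background, scaling, filters, thresholds, array weights, intensity trend, the methods' t-test, averaged probes, the replicate number as a block, and each array left out. Promoter windows came from RefSeq (GRCm38.p6). The other marker lists, for microglia (2 of 3 tested genes higher in E18.5 than in E12.5), endothelial cells (2 of 3 higher) and meninges (0 of 1 passing), were read with those in the report.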

Additional observations from a re-analysis of the deposited data

Results flagged for a closer look

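Among 60 sets of 4 arrays (20 named genes at 3 stages), 4 held a value far from the other 3 by Dixon's test, which chance gives in about 1 set in 20. Hnrnpr stood at 9.87 on E18.5 replicate 4, against 9.57 to 9.62 on the other E18.5 arrays. Hnrnpd stood at 8.78 on E15.5 replicate 2, against 8.24 to 8.32. Snrpb stood at 12.84 on E12.5 replicate 3, against 12.66 to 12.67, and Snrpf at 11.39 on E15.5 replicate 2, against 11.34 to 11.35.

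Read from each gene's brightest probe, the change differed between the intervals in 2 genes by a test of the difference itself (limma, Benjamini-Hochberg). For Hnrnpa3 the difference was 1.62 (-0.80 in E15.5 against E12.5 and 0.82 in E18.5 against E15.5, adjusted p = 0.00237). For Sf3b6 it was -1.03 (0.09 and -0.94, adjusted p = 0.00284).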

How the results depend on the processing

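Over the alternatives, the results of the named genes kept their direction and side of the threshold 1509 times, lost the call 84 times, gained it 25 times and reversed 2 times: Hnrnpab in E18.5 against E15.5 was -0.63 with median scaling (adjusted p = 0.000328), and Srsf11 was 0.17 with the probes of a gene averaged. With a minimum of 2-fold, 2 members were lower in E15.5 against E12.5, 1 higher and 0 lower in E18.5 against E15.5 (17 at the adjusted p alone, limma; 27 at an unadjusted p under 0.05 by the methods' t-test), and 9 lower in E18.5 against E12.5. Members lower in E18.5 against E15.5 numbered 8 with cyclic loess. Shares of all genes under the alternatives are not given here, so no excess of members is read from these counts. With 1 array left out, members lower numbered 16 to 21, 11 to 17 and 31 to 34 in the 3 comparisons, members higher 3, 3 to 5 and 3, and differences between intervals 0 to 2. The count of differences between intervals was 5 at an adjusted p under 0.05, 6 with probes averaged, and 1 without the fourth replicates of both E12.5 and E15.5, chosen after seeing the data. Replicate numbers did not pair the samples (deviations of same-numbered arrays correlated at -0.33 to 0.27, over 0.1 in 3 of 12 pairs). With the replicate block, 11 members were lower in E18.5 against E15.5 and 1 differed between intervals. The causes were not tested. The array chip as a block was not run. Members near background (Sf3a2, Sf3b1, Srsf12 and Hnrnph2 at E12.5) are the least certain.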
